A study of Homo sapiens with 8 samples.

Results

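The RUNX1 locus held 15 PML::RARA peaks in induced U937-PR9 cells, of 15412 peaks in the whole list. They were selected by called position and label, as every peak with the RUNX1 symbol and every peak wholly inside a 1250-kb window of chromosome 21 (hg19), from 10.1 kb beyond the 3′ end of RUNX1 to 23.0 kb beyond its most distant start. A gene symbol in the list marks a peak whose apex overlapped a promoter. Of the 15 peaks 3 carried the RUNX1 symbol, and no RUNX1 symbol occurred outside the window. The locus was chosen with its peak heights in this list already known, so the values are a description, with no test.

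U937-PR9 is a myeloid line of monocytic type that carries a PML::RARA transgene under a zinc-inducible promoter. Induced cells received 100 μM ZnSO4 and uninduced cells sterile water, both for 5 h, and each condition was profiled by Cut&Run with an anti-PML-RARA and an anti-RARA antibody in 2 replicates, 8 libraries in all. The anti-PML-RARA peak list of induced cells is used here, with both replicates merged into 1 set of values per peak. The spread between replicates and the depth are therefore unknown. Libraries of uninduced cells and of the anti-RARA antibody were not analysed here, and what zinc and what PML::RARA did cannot be told apart.

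RUNX1 is the DNA-binding subunit of core-binding factor, which it forms with CBFB, and a master regulator of blood stem cells and of myeloid differentiation. It is transcribed from a distal promoter, P1, which makes the long isoform of blood stem and progenitor cells, and from a proximal promoter, P2, inside the gene. The intron between the promoters is known to hold enhancers active in blood cells, and RUNX1 is a frequent target of mutation and translocation in acute myeloid leukemia. PML::RARA joins PML to the DNA-binding and ligand-binding domains of the retinoic acid receptor RARA and is the driver of acute promyelocytic leukemia.

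RUNX1 (ENSG00000159216) lies on the minus strand. In GENCODE release 44 the P1 start of the reference transcript is at position 36421599, the P2 start at 36260987 and the 3′ end at 36160098, so that P1 and P2 are 160612 bp apart. Peaks are numbered here from the 3′ end of the gene (peak 1) to the upstream end of the window (peak 15). The height of a peak is its largest signal and the total signal is the sum over its width, both in the authors' deposited units. Which deposited column is which was read from the values, and every height rests on that reading. A percentage beside a value is the share of all 15412 peaks with a lower value.

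The sequences that carry the description are those at the 3 labelled peaks and at the 3 highest unlabelled ones, all from hg19 and on the plus strand, with matches to the 7 motifs described further on in capitals. At P2 the bases directly upstream of the start are shown up to 100 bp beyond the apex (chr21:36260988-36261152), and at P1 the 201 bases upstream of the most upstream start of the P1 group (chr21:36421642-36421842). The AP-1 letters in the P1 stretch lie more than 100 bp from the apex and are not counted among the matches near it. The others are the 201 bases around the apex of peak 10 (chr21:36423706-36423906), peak 12 (chr21:36880762-36880962), peak 2 (chr21:36237940-36238140) and peak 4 (chr21:36280772-36280972).
P2, peak 3: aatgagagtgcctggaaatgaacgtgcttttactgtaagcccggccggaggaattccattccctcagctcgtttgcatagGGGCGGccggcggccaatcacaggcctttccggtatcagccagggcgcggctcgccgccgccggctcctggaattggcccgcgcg
P1, peak 9: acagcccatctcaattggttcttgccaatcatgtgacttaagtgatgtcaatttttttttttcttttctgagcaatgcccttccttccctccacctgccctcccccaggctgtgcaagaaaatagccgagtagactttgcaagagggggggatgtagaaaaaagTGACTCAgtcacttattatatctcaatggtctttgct
Upstream of P1, peak 10: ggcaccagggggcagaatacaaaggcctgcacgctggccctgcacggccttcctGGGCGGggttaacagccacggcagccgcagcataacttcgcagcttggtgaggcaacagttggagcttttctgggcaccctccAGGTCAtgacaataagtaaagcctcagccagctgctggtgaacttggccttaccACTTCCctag
Far upstream, peak 12: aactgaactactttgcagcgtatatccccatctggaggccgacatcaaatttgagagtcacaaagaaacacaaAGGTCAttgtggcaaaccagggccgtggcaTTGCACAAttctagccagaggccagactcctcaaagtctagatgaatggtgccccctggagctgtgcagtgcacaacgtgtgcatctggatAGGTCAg
Intron 5, peak 2: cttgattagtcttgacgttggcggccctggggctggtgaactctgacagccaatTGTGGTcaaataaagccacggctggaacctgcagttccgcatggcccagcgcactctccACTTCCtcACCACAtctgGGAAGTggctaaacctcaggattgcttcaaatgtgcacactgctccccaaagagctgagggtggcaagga
Intron 2, peak 4: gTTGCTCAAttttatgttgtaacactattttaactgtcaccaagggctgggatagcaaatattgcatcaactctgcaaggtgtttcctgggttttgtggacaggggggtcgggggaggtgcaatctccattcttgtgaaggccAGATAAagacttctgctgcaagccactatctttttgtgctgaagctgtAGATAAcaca

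Both RUNX1 promoters carried a PML::RARA peak. The P1 peak (peak 9, chr21:36420386-36421889) had a height of 48 (94.2%), a width of 1504 bp (83.5%) and a total signal of 18803 (88.0%). The P2 peak (peak 3, chr21:36260124-36263006) had nearly the same height, 47 (93.6%). It was the widest of the locus at 2883 bp (98.3%) and held the largest total signal, 38891 (98.6%). The promoters were thus alike in height, and the P2 peak was wider.

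The apexes of both peaks lay close to the start sites. At P1 the apex lay 61 bp downstream of the start, in the 5′ UTR of exon 1, and the peak reached 290 bp upstream and 1213 bp into the gene, over 5 annotated starts between 36421567 and 36421641. At P2 the apex lay 65 bp upstream of the start, and the peak reached 2019 bp upstream and 863 bp into the gene, over the start of P2 and another at 36262087. The RUNX1 promoter sequence of RefSeq (GRCh38.p14), 300 bases long, occurs once on hg19 chromosome 21, at chr21:36260947-36261246, and so lies wholly inside the P2 peak.

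The highest peak of the locus lay beside P1 and not on it. Peak 10 (chr21:36423172-36424219) carried the RUNX1 label and had its apex 2207 bp upstream of P1. Its height of 74 was exceeded by 12 peaks of the list and equalled by none, and 8 of the 12 also carried a promoter label. The width of 1048 bp (64.2%) and the total signal of 15971 (83.0%) were less extreme. Its mean signal per base was 20.6% of its height, a lower ratio than in all but 0.545% of the peaks, against a median of 34.9% over the list, so the signal of peak 10 was uneven over its width. The P1 peak, with 26.0%, and the P2 peak, with 28.7%, also lay below that median.

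A low, narrow peak completed the group at P1. Peak 8 (chr21:36419473-36419846) lay 539 bp from the P1 peak, in intron 2 of the P1 transcript. It reached a height of 19 (19.5%) over 374 bp (10.9%). It carried no label. Counted by an apex within 3 kb of P1 or P2, 4 peaks lay at the promoters, and within 1 kb, 2. A gene with 3 labelled peaks was uncommon in the list, since 58 of the 6546 genes with a label (0.886%) had 3 or more. Among the 27 related genes described at the end, LMO2 had 4, and RUNX3 and BCOR had 3 each.

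**Figure D1:**
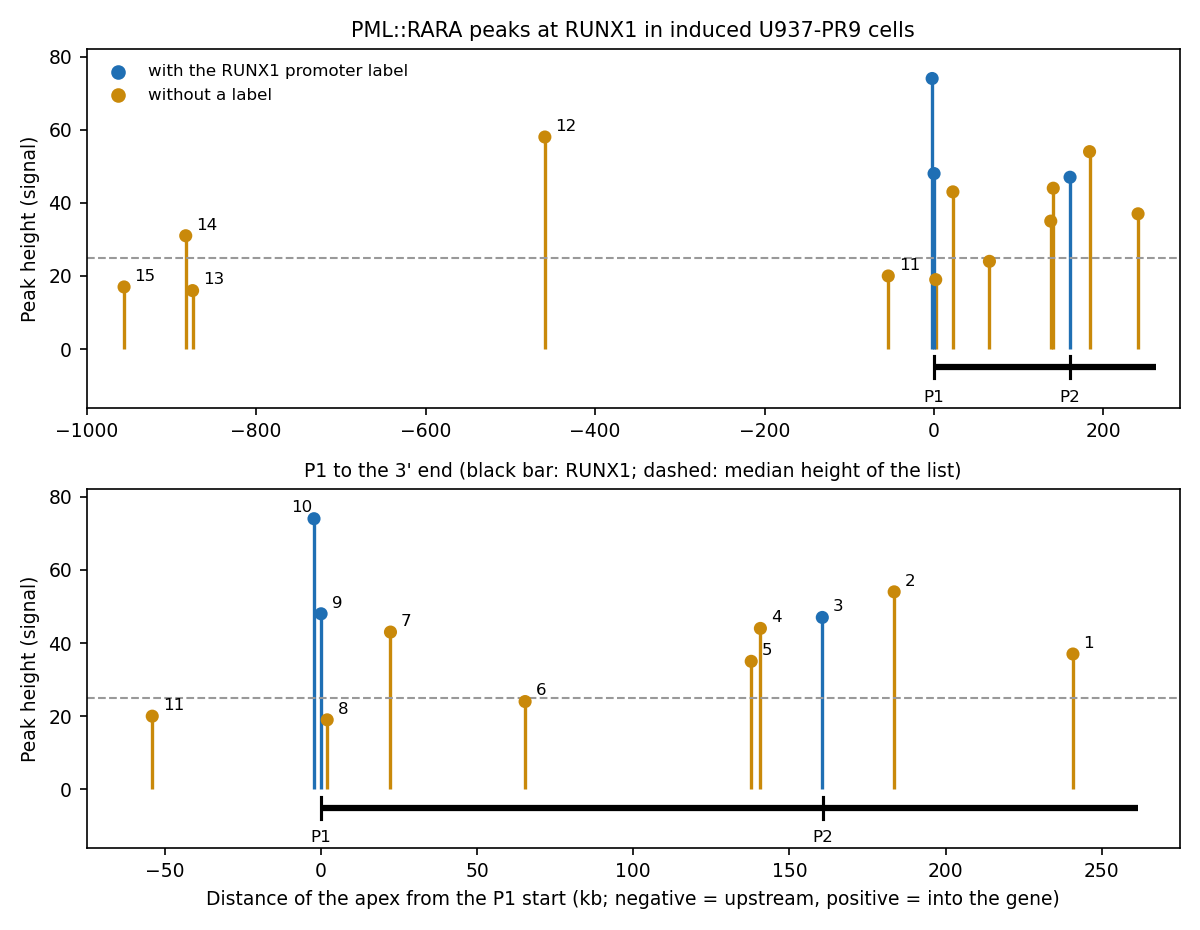
Height of each RUNX1 locus peak (vertical axis, deposited signal) against the distance of its apex from the P1 start in kb, for the whole window (upper panel, which numbers only the peaks upstream of the P1 group) and for P1 to the 3′ end (lower panel). Blue points carry the RUNX1 label, the black bar is the gene from P1 to its 3′ end and the dashed line is the list's median height of 25; 9 of the 15 apexes lie in the gene and the highest, at 74, lies just upstream of P1.

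Between the promoters, 4 unlabelled peaks lay in intron 2 of the P1 transcript besides peak 8. By total signal the largest was peak 7 (chr21:36398619-36399848), 22.28 kb downstream of P1, with a height of 43 (89.9%), a width of 1230 bp (73.3%) and a total signal of 20725 (90.5%), the second largest of the locus. Peak 4 (chr21:36280616-36281343) lay 19.89 kb upstream of P2 with a height of 44 (91.0%). Peak 5 (chr21:36283554-36284137) followed 2210 bp farther upstream with a height of 35 (77.9%). Peak 6 (chr21:36355913-36356527) was the lowest of these 4, at 24 (45.3%), and the only one of them under the list's median height. Whether any of these peaks coincides with an enhancer mapped in other work was not tested.

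Peaks 4 and 5 were higher than they were wide. Peak 4 was 728 bp wide (42.3%) and peak 5 was 584 bp wide (29.8%), both under the list's median width of 829.5 bp. Of the 15 peaks, 4 lay above the median height and below the median width (26.7%), namely peaks 4, 5, 12 and 14, against 14.9% of the whole list. All 4 were unlabelled, and they made up 33.3% of the 12 unlabelled peaks, against 20.6% of all unlabelled peaks.

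Downstream of P2, 2 peaks lay in introns. Peak 2 (chr21:36237492-36238592) lay in intron 5, 22.95 kb downstream of P2, with a height of 54 (97.2%), a width of 1101 bp (67.0%) and a total signal of 18831 (88.0%). It was higher than the peaks at P1 and P2 themselves and also overlapped the noncoding gene ENSG00000286153 of the plus strand. Peak 1 (chr21:36179892-36181268), in intron 7 towards the 3′ end, had a height of 37 (81.7%), a width of 1377 bp (79.1%) and a total signal of 16205 (83.5%).

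Upstream of the P1 group the peaks thinned out over nearly a megabase. The 5 peaks there had heights of 16 to 58 and a median of 20. GENCODE extends RUNX1 to a start at 37376965, so all of them but peak 15 lie inside the annotated gene, and none of these 4 overlaps an exon. Peak 11 (chr21:36475228-36475736) lay 54.0 kb upstream of P1 with a height of 20 (25.5%). Peak 12 (chr21:36880606-36881238) stood alone, 459.3 kb upstream of P1 and with 405 kb free of peaks on its gene side and 415 kb on the other.

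Peak 12 was the second highest of the locus, with a height of 58 (98.5%). Its width of 633 bp (34.3%) and total signal of 10364 (66.1%) were closer to the middle of the list. The nearest start of another gene, that of the pseudogene RPL34P3, lay 36132 bp away. Peaks 13 (chr21:37296206-37296664) and 14 (chr21:37304470-37305196) lay 7805 bp apart, with heights of 16 (0.13%) and 31 (68.7%). A height of 16 was shared by 1115 peaks, and 20 peaks of the list were lower. Peak 15 (chr21:37377410-37377549) had a height of 17 (7.36%) and was 140 bp wide (0.461%). Its apex lay 29 bp from the start of LINC01436, a noncoding gene, in its first exon, and 499 bp upstream of the most distant RUNX1 start.

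The limits of the window did not split a group of peaks. The nearest peak outside its lower end (chr21:35990264-35990757) was unlabelled, had a height of 20 and lay 189.1 kb from peak 1. At its upper end the nearest was the SETD4 promoter peak (chr21:37432216-37433365), with a height of 36, 54.67 kb from peak 15.

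As a group the 15 peaks were higher and not wider than the list. Their median height was 37 (range 16 to 74), against 25 over the list, and 10 of 15 lay above that value, 6 of them among its highest 10%. The median width was 727 bp against 829.5 bp, with 6 of 15 above it. The median total signal was 10364 against 7290. Among the 12 unlabelled peaks the median height was 33, against 23 for all 8243 unlabelled peaks of the list, and 8 of the 12 lay above 23. Neighbouring peaks are not independent, and no test was made.

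**Figure D2:**
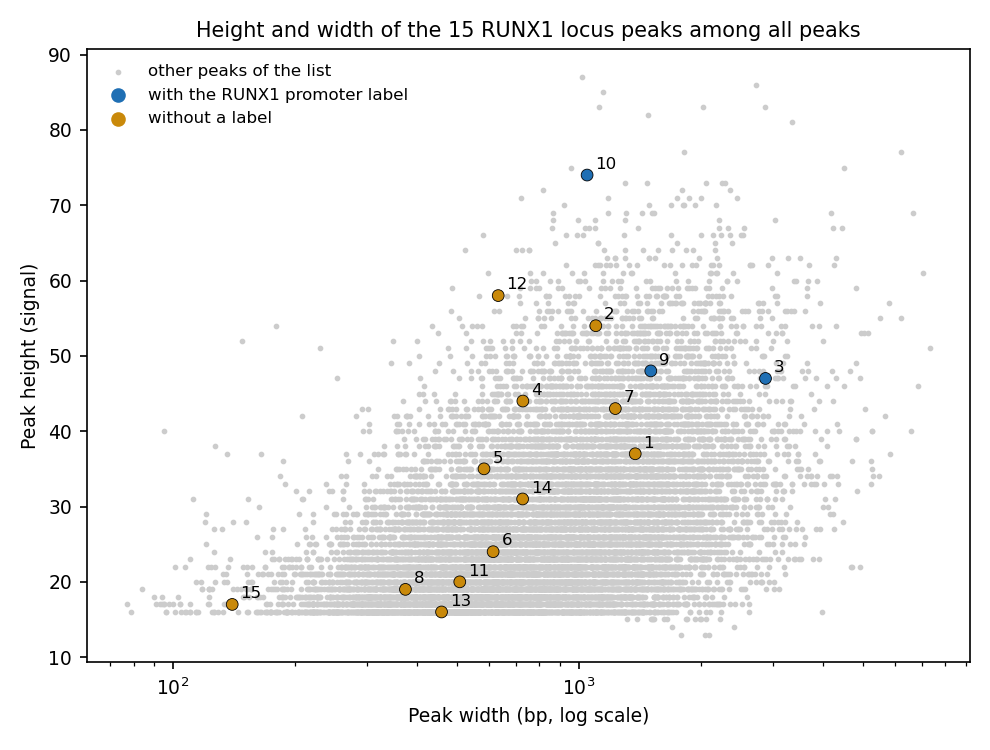
Height (vertical axis, deposited signal) against width (horizontal axis, bp on a log scale) for the 15 RUNX1 locus peaks, numbered, among all other peaks of the list in grey. Peak 10 (74) and peak 12 (58) stand near the top of the cloud for their widths of 1048 and 633 bp, and peak 3 lies toward the wide end at 2883 bp.

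**Figure D3:**
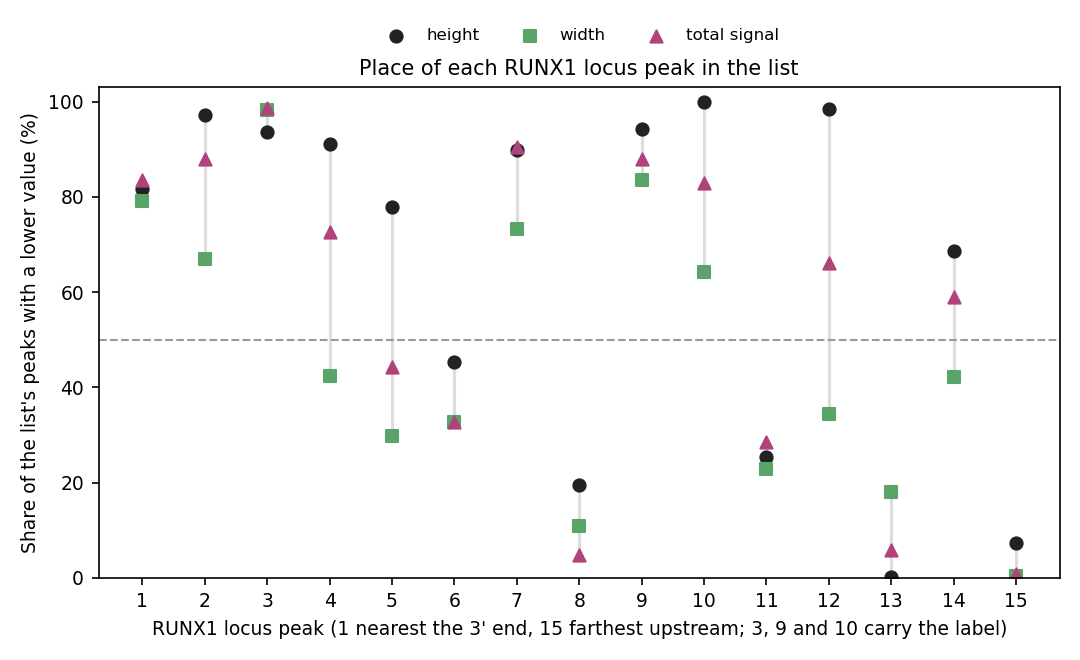
For each of the 15 peaks, the share of all 15412 peaks with a lower height (circles), width (squares) or total signal (triangles), in percent. The P2 peak (3) lies at 93.6% or above by all 3 measures. All peaks but 3 and 13 stand higher by height than by width, with the widest gap in peak 12 (98.5% against 34.3%).

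By signal, the labelled peaks held less than the rest of the locus. The 3 labelled peaks, with peak 10 among them, summed to 73665 of 182288, or 40.4% of the signal over 5435 of 13912 bp of peak. Peaks that overlapped the 1 kb around the P1 or P2 start held 31.6%. Over the whole list labelled peaks held more than unlabelled ones, 90813410 against 61675768. The 7 unlabelled peaks from P1 to the 3′ end held 44.6% and the 5 upstream of the P1 group 15.0%. Peak 3 alone held 21.3%, peak 7 held 11.4% and peaks 2 and 9 each held 10.3%.

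The peaks were densest between P1 and P2. With 7 apexes in 160.6 kb that segment held 4.36 peaks per 100 kb, the segment from P2 to the 3′ end held 1.98 and the region upstream of P1 held 0.613. The 7 apexes between P1 and P2 include those of both promoter peaks, 61 bp from the P1 start and 65 bp from the P2 start. The segment from P2 to the 3′ end thus counts no promoter peak, although the P2 peak reaches into it. The upstream value counts 6 apexes, with that of peak 10 beside P1 among them. Over chromosomes 1 to 22 and X the list held 0.508 peaks per 100 kb, and over chromosome 21 it held 0.497. Both chromosome values were taken over full lengths (48129.89 kb for chromosome 21). Stretches without sequence, where no peak can be called, were not left out, so the upstream region cannot be ranked against these values. The segments were set by the gene and the window by the choice of the locus, so these densities are no test.

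Few genes held as many peaks. The reference transcript of RUNX1, 261.5 kb long, had 9 apexes over it with a summed signal of 139001. Of 19812 protein-coding genes counted in this way 13 had more and 5 others as many, while 15931 had none over the transcript. An apex just upstream of a start is not counted in this way, so a gene with none can still have a promoter peak. Of 20090 protein-coding genes, 39.3% had an apex within 1 kb of a start. By summed signal 5 genes exceeded RUNX1. Among the 1230 genes of 200 kb or more, 9 had more peaks and 8 had more peaks per 100 kb. CDH23 and HIVEP3 had the most, with 15 each, over 419.0 and 412.6 kb.

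Sequence matches were sought within 100 bp of each apex, on both strands, for the RUNX site TGTGGT, the ETS site GGAAGT, the retinoic acid receptor (RAR) sites AGGTCA and GGGTCA, the AP-1 site TGANTCA, the C/EBP site TTGCNNAA, the GATA site AGATAA and the SP1 site GGGCGG. Of the 15 windows 11 held at least 1 match and 7 held matches to 2 or more motifs. Peaks 5, 7, 13 and 15 held none. A match is a description of the letters and not evidence of binding.

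RUNX sites, the recognition letters of RUNX1 itself, occurred in 3 of the 15 windows (20.0%, Wilson 95% interval 7.05 to 45.2%), against 19.4% of all peaks and 13.8% of windows centred 2 kb from each apex, towards lower coordinates. Such windows beside the 15 locus peaks also held a site in 3 of 15 (20.0%). By label, 28.4% of the list's unlabelled peaks and 9.05% of its labelled ones held a site near the apex. Among the 12 unlabelled locus peaks the share was 16.7%. Over whole peaks the shares were 46.7% at the locus and 45.1% in the list, and with the longer TGTGGTT near the apex 6.67% and 9.17%. The 3 were the P1 peak, peak 1 and peak 2. P1 is known for RUNX sites near its start, and the P1 window held 3 of them, more than any other window of the locus. The tandem pair lay 22 to 35 bp downstream of the P1 start (chr21:36421564-36421569 and chr21:36421572-36421577), in the 5′ UTR, with the sites in capitals:
RUNX sites at P1: acccaactTGTGGTtcTGTGGTtgtttatg
The midpoints of the pair lay 28 and 36 bp from the apex. The third site, at chr21:36421480-36421485, lay 56 bp on the other side of it. The P2 window held no RUNX site and 2 SP1 sites, and the whole P2 peak held 2 RUNX sites.

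Peak 2, in intron 5, held RUNX and ETS sites together. ETS factors such as SPI1 are the myeloid partners of RUNX1. Besides a RUNX site 44 bp from the apex, 1 RUNX site lay between 2 ETS sites of opposite orientation within 24 bp (chr21:36238053-36238076), as the capitals in the printed sequence show. Both motifs occurred together in 1 of 15 locus windows (6.67%), 6.15% of all peaks, 9.39% of unlabelled ones and 1.28% of windows 2 kb away. ETS sites alone occurred in 4 of 15 windows (26.7%, 10.9 to 52.0%), against 30.4% of all peaks and 10.5% of windows 2 kb away. Within 200 bp of the apex the order turned, with 53.3% at the locus and 42.3% in the list. Around the middle of the peak the shares were 26.7% and 24.2%. Over whole peaks the locus stayed lower, with 46.7% against 60.2%, and so it did with AGGAAG near the apex, 26.7% against 41.5%. Besides peak 2, GGAAGT within 100 bp of the apex occurred in peaks 10, 11 and 14. Each of these had its site 72 to 94 bp from the apex.

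RAR sites, which PML::RARA can contact through its RARA part, occurred in 3 of 15 windows (20.0%, 7.05 to 45.2%), against 24.4% of all peaks and 23.7% of windows 2 kb away. Of unlabelled peaks, 28.6% in the list and 16.7% at the locus held one. With AGTTCA and GGTTCA also allowed the order turned, with 46.7% at the locus and 35.7% in the list, and over whole peaks AGGTCA or GGGTCA occurred in 53.3% and 64.9%. They lay in peaks 6, 10 and 12. The 2 highest peaks of the locus, 10 and 12, thus both held AGGTCA, 40 bp and 24 bp from the apex, and peak 12 held it again 96 bp away. No locus window held 2 RAR sites in the same orientation 0 to 8 bp apart, when AGTTCA and GGTTCA were also allowed, and 0.895% of all peaks and 1.8% of windows 2 kb away did. With 15 windows, 0 allows a share of up to 20.4%.

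Of the remaining motifs, AP-1 sites occurred in 4 of 15 windows (26.7%, 10.9 to 52.0%), against 12.5% of all peaks and 19.2% of unlabelled ones. All 4 were unlabelled peaks (1, 6, 8 and 14), with the site 6 bp from the apex in peak 1 and 14 bp in peak 6. SP1 sites occurred in 3 of 15 windows (20.0%, 7.05 to 45.2%), against 38.6% of all peaks, 61.9% of labelled ones and 18.4% of unlabelled ones. By label, 2 of the 3 labelled locus peaks and 1 of the 12 unlabelled ones held one. C/EBP sites occurred in peaks 4 and 12 (13.3%, against 9.64% of all peaks and 8.77% of windows 2 kb away), in peak 12 at 6 bp from the apex. GATA sites occurred in peak 4 alone, which held 2 (6.67%, against 3.92% of all peaks and 10.7% of windows 2 kb away). For each of the 7 motifs the interval of the 15 windows contained the share of all peaks, so a difference between the locus and the list was not detectable with 15 windows. The intervals cover the counting of peaks only.

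**Figure D4:**
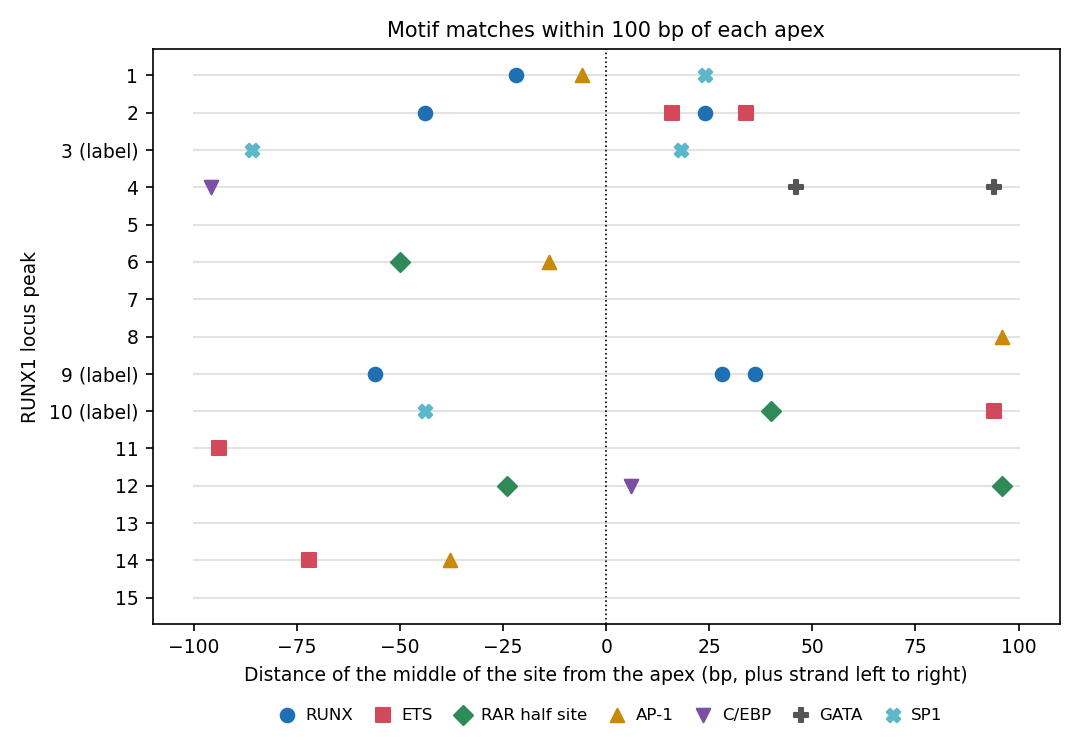
Position of each motif match relative to the apex (horizontal axis, bp, plus strand from left to right) in the 15 RUNX1 locus peaks (rows, with labelled peaks marked). The P1 peak (9) holds 3 RUNX matches, and in peak 2 a RUNX match sits between 2 ETS matches at 16 and 34 bp.

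**Figure D5:**
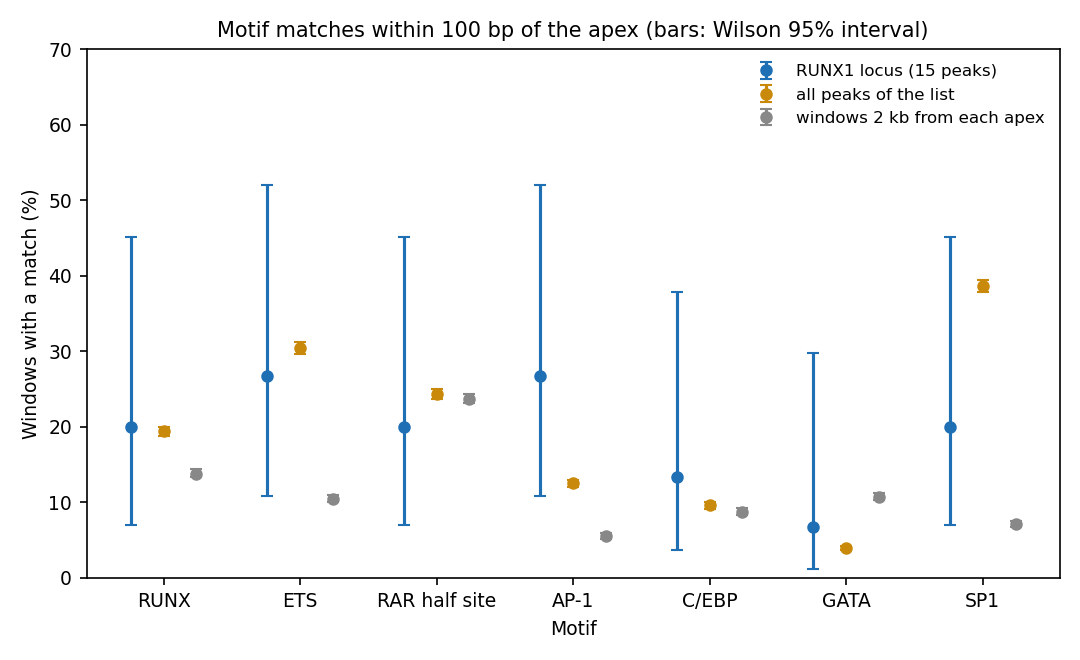
Percentage of windows within 100 bp of the apex that hold each motif, for the 15 RUNX1 locus peaks, all 15412 peaks and windows 2 kb from each apex, with Wilson 95% intervals as bars. The intervals of the locus are wide, from 7.05 to 45.2% for RUNX, and reach the value of all peaks for each motif.

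The windows differed in base composition. Their GC content ranged from 43.3% in peak 14 to 67.2% at P2, with a median of 53.7%, against 59.2% over all peaks and 54.7% over unlabelled ones. The P2 window held 23 CG dinucleotides, against a median of 17 over labelled peaks, and the P1 window held 3 at a GC content of 49.3%. By this count P2 was rich in CG and P1 was not.

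The genes that work with RUNX1 were taken as a list of 27. Of these, 19 had a promoter peak under their own symbol, and 18 had an apex within 1 kb of a start site. Over all protein-coding genes 30.0% of 20090 had a labelled peak and 39.3% had an apex within 1 kb. With peaks at or above the median height of 25 only, 12 of the 27 had a labelled peak, against 17.5% of all protein-coding genes. Whether activity of these genes in blood cells has a part in these shares was not tested, and no test of the list was made.

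In the family of core-binding factor and its ETO partners, 5 of 6 genes had a labelled peak. CBFB, the partner subunit, had one of height 20 that was 1766 bp wide. RUNX3, a paralog, had 3 labelled peaks, the highest at 43, and RUNX2, the paralog of bone, had 1 of height 19 with 4 peaks over the gene. CBFA2T3, a corepressor of the ETO family, reached 41 with a width of 3225 bp and CBFA2T2 reached 24. RUNX1T1, the fusion partner of RUNX1 in another leukemia, had no labelled peak and none over the gene. None of these reached the height of RUNX1's peak 10.

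Of the 6 other factors that act with RUNX1 in blood stem cells, FLI1, LYL1 and LMO2 had labelled peaks and ERG, GATA2 and TAL1 had none. The highest labelled peaks reached 51 at LYL1, 36 at LMO2 and 17 at FLI1. FLI1, an ETS factor, held 7 peaks over its gene, the highest of them at 57 (chr11:128563669-128566432). ERG, also on chromosome 21, had 1 peak over the gene, with a height of 31.

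Among 8 myeloid genes known as RUNX1 targets, 6 had a labelled peak. These were SPI1 (height 22), CEBPA (17), GFI1 (34), CSF1R (33), MPO (34) and ELANE (19), and the cytokine genes CSF2 and IL3 had none. An apex within 1 kb of a start occurred in 4 of the 8, against 39.3% of all protein-coding genes. SPI1 and CSF1R had a label but no such apex. Of 7 cofactors and regulators, 5 had a labelled peak and 6 an apex within 1 kb of a start. The corepressor SIN3A had the highest of the whole list of 27, 77 high and 6203 bp wide. Among these 7 genes the methyltransferase PRMT1 followed with 48. HDAC1 reached 34, BCOR 27 and EP300 26. KMT2A had an unlabelled peak of height 31 within 1 kb of a start, and DNMT3A had 6 peaks over the gene and no labelled one.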

How the data were processed

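Per the paper's methods, the authors used Trimmomatic, Bowtie2 (hg19) and Samtools (duplicate removal), and called SEACR peaks against the paired control (norm union), keeping peaks at an IDR below 0.05 across both replicates. Versions are not given in the sources used here. The authors deposited a total signal, a score summed over the peak, and a largest signal (height) for each peak. The column named summit was taken as the total and SEACR_score as the height. This crossed reading rests on the values alone. In 0 peaks did the total signal reach height times width. The methods do not state whether these values were scaled by library size, as the paper's plotted tracks were.

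Apexes are midpoints of the deposited interval of largest signal. Genes came from GENCODE release 44 on GRCh37, the same build. Motif counting and merging were tested on simulated data. The locus, gene list and motifs were chosen with earlier results of these data known, and all RUNX1 circuit genes and all 15 peaks are reported. The printed sequences are those of the labelled and the 3 highest other peaks. No depth was given, so intervals cover the counting of peaks only. Software was samtools 1.23.1 and Python 3.11.15 with pandas 2.3.3, matplotlib 3.10.9, pysam 0.24.0, scipy 1.17.1 and numpy 2.4.6. Alternatives were peak merging, median height, other start distances, other ranks, and other motif windows and spellings.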

Additional observations from a re-analysis of the deposited data

How the results depend on the processing

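Peaks were kept for reproducibility across both replicates, but the list holds 1 value per peak, so how far a value differs between replicates is unknown. The authors called peaks against the paired control, but the list holds no values of uninduced cells. Each peak is thus a presence in induced cells over that background, and the size of a change is unknown. No paired analysis was possible because both replicates share 1 value at each peak, so leaving out a replicate could not be tried either. Of 31 alternatives 18 left the value within its interval or within 1.5 times, and 13 did not. The number of peaks was 9 from P1 to the 3′ end, and the density was 3.44 per 100 kb there and 0.613 upstream of P1. The median of mean signal per base, another quantity than height, was 12.2. By total signal the top peak of the locus stood above 98.6% of the list and by width above 98.3%. By number, the labelled peaks made up 20.0% of the locus peaks, and in the list 7169 of 15412 peaks were labelled. RUNX sites occurred in 46.7% of whole peaks and, as TGTGGTT, in 6.67% of windows, against 45.1% and 9.17% of the list. ETS sites within 200 bp occurred in 53.3%, against 42.3% of the list. Over whole peaks, where the value stayed within its interval, ETS sites occurred in 46.7%, against 60.2% of the list. RAR sites occurred in 53.3% of whole peaks and, with 4 spellings, in 46.7% of windows, against 64.9% and 35.7% of the list. With peaks at or above the median height only, 12 of the 27 circuit genes had a labelled peak, down from 19, against 17.5% of all protein-coding genes at that height.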
